A study of Mus musculus with 24 samples.

Results

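The genes described here are the axon guidance ligands and receptors: all protein-coding genes whose symbol begins with Sema, Plxn, Nrp1, Nrp2, Ntn, Ntng, Unc5, Dcc, Slit and a digit, Robo, Epha, Ephb, Efna or Efnb. They number 73 of the 33364 genes listed. By family they are 20 semaphorins, 9 plexins, 2 neuropilins, 4 netrins, 2 netrin-Gs, 5 netrin receptors, 3 Slits, 4 Robos, 5 ephrin-As, 3 ephrin-Bs, 9 EphA receptors and 5 EphB receptors. The symbols Unc50 and Unc5cl share only the prefix with the netrin receptors, and these 2 genes were counted but kept outside the families.

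RNAseq was done on 2 cortical regions, the anterior cingulate (ACC) and the medial prefrontal cortex (mPFC), of C57BL/6 mice (C57BL/6J in the study's methods), 3 months old, 2 weeks after spared nerve injury (SNI), in which branches of the sciatic nerve are cut to produce neuropathic pain, or after sham surgery. Females and males, both regions and both surgeries gave 8 groups of 3 libraries, 24 in all. The labels name no transgene and no drug for any group. Each library came from a pool of several animals and from a tissue punch, so it averaged both animals and cell types.

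Axon guidance molecules steer growing axons by attraction or repulsion. Semaphorins act on plexins, with neuropilins as co-receptors for the secreted class; netrins act on Dcc and the Unc5 receptors; Slits act on Robos; and ephrins, which stay bound to the membrane, act on Eph receptors on the neighbouring cell. In the adult cortex many of these genes remain expressed, in neurons, oligodendrocytes and vessels, and several are known to shape synapses.

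Promoter windows of 300 bases, running from 250 bases before to 50 bases after the start in RefSeq on GRCm38.p6, were found for 63 of the 73 members. They are shown for 4 members with large differences between the regions: Sema7a and Plxnc1, a ligand and its receptor that differed in opposite directions, Robo3, with the largest mean difference of any member, and Sema3d, with the largest mean difference toward the mPFC. Capitals mark matches on either strand to 3 motifs, and overlapping matches run together. The GC box was searched as GGGCGG. The TATA box was searched as TATAAA. The E-box was searched as CAGCTG. Each sequence reads 5′ to 3′ on the strand of its gene. The windows lie at chr9:57939862-57940161 (plus strand) for Sema7a, chr10:94944796-94945095 (minus strand) for Plxnc1, chr9:37433126-37433425 (minus strand) for Robo3 and chr5:12382916-12383215 (plus strand) for Sema3d.
Sema7a: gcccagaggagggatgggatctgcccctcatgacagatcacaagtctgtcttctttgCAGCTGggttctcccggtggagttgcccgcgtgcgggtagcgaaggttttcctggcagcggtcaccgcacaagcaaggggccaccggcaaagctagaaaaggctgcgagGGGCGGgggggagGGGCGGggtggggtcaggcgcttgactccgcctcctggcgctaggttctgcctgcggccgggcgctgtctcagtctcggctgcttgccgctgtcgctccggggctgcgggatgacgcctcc
Plxnc1: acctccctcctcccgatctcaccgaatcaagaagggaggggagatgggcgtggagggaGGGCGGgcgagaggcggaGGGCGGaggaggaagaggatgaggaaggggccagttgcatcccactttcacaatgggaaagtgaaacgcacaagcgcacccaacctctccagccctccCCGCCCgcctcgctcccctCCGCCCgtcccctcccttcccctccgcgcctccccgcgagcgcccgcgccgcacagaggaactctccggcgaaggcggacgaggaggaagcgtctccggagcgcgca
Robo3: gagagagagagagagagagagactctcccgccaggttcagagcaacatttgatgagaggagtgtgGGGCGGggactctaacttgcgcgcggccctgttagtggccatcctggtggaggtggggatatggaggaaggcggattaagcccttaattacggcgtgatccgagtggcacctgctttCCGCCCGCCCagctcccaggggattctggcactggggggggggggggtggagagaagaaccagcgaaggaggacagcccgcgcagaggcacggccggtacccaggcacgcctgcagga
Sema3d: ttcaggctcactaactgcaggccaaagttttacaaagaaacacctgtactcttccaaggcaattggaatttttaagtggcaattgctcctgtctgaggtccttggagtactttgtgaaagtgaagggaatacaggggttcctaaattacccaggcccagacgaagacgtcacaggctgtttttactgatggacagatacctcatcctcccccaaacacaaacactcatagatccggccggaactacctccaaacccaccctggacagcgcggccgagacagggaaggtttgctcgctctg

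The window of Sema7a held 23 CpG dinucleotides and 2 GC boxes, that of Plxnc1 held 30 CpG and 4 GC boxes, and that of Robo3 held 17 CpG and 3 GC boxes. The window of Sema3d held 8 CpG, close to the median of 7 over all 32851 promoter windows, and none of the 3 motifs. The E-box letters occurred once among these sequences, in Sema7a. Over the 79 windows of the members the median was 19 CpG, and 70.9% of them held GGGCGG against 35.7% of all windows. TATAAA was found in 2.53% of the members' windows against 13.6% of all, and CAGCTG in 15.2% against 16.3%. These matches describe letters in the window and not bound sites.

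Each library held between 23853845 and 32864391 counted reads (median 26727282). Levels are given as CPM, a gene's counts relative to the library total after scaling by the trimmed mean of M values (TMM). Of the 73 members, 70 passed the filter on low counts in every comparison, with a median of 32.7 CPM against 16.2 CPM over all genes tested between the regions of sham females. The other 3, Epha1, Efna4 and Unc5cl, passed it in none, with at most 10, 7 and 6 counts in any library. Some libraries stood apart by their GC content trend, the slope of a gene's log2 level against its GC content per 10 percentage points. This slope was 0.194 and 0.195 in 2 sham libraries of the female mPFC against -0.063 in the third, and 0.188 in 1 sham library of the male ACC against -0.109 and -0.098 in the other two. In the male ACC after SNI it was 0.175 and 0.13 in 2 libraries against 0.01 in the third. Since the members had a median GC content of 56.0% against 49.4% over all genes tested, region counts are also given with an offset that removes this trend.

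Compared per kilobase of exon, the highest mean levels over the 24 libraries belonged to Ephb6, an Eph receptor that lacks kinase activity, at 56.5 CPM per kb, and to Sema7a, a membrane-anchored semaphorin, at 54.1 CPM per kb. Next came Sema6b, a transmembrane semaphorin, at 42.6, Unc5a, a netrin receptor, at 31.4, Epha4, a receptor for ephrins of both classes, at 30.3, and Efnb3, a transmembrane ephrin, at 25.3 CPM per kb. Plxna1, a signalling partner of the neuropilins, reached 22.6 and Efna3, a membrane-anchored ephrin, 22.4 CPM per kb. Slit1, a secreted repellent, stood at 16.9 CPM per kb and the highest Robo, Robo2, at 7.0. The netrins were low, from 1.53 CPM per kb for Ntn5 to 2.8 for Ntn3, and Ntn3 shares exons on its own strand with Tbc1d24, so its counts are uncertain. Exon overlap on the same strand is also annotated for Ntng2 (with 6530402F18Rik), Plxnc1 (Gm48718), Nrp1 (Mir1903) and Sema4a (Mir7011). The neuropilins were level with each other, at 3.41 CPM per kb for Nrp1 and 3.25 for Nrp2. In the other families the lowest members were Sema3b at 0.473, Plxnb3 at 3.24, Ntng1 at 2.37 with Ntng2 at 6.3, Dcc at 1.8, Slit2 at 1.84, Robo4 at 1.48, Efnb1 at 5.37 and Ephb4 at 1.57 CPM per kb, and Epha1 and Efna4 were at 0.0383 and 0.106.

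**Figure D1:**
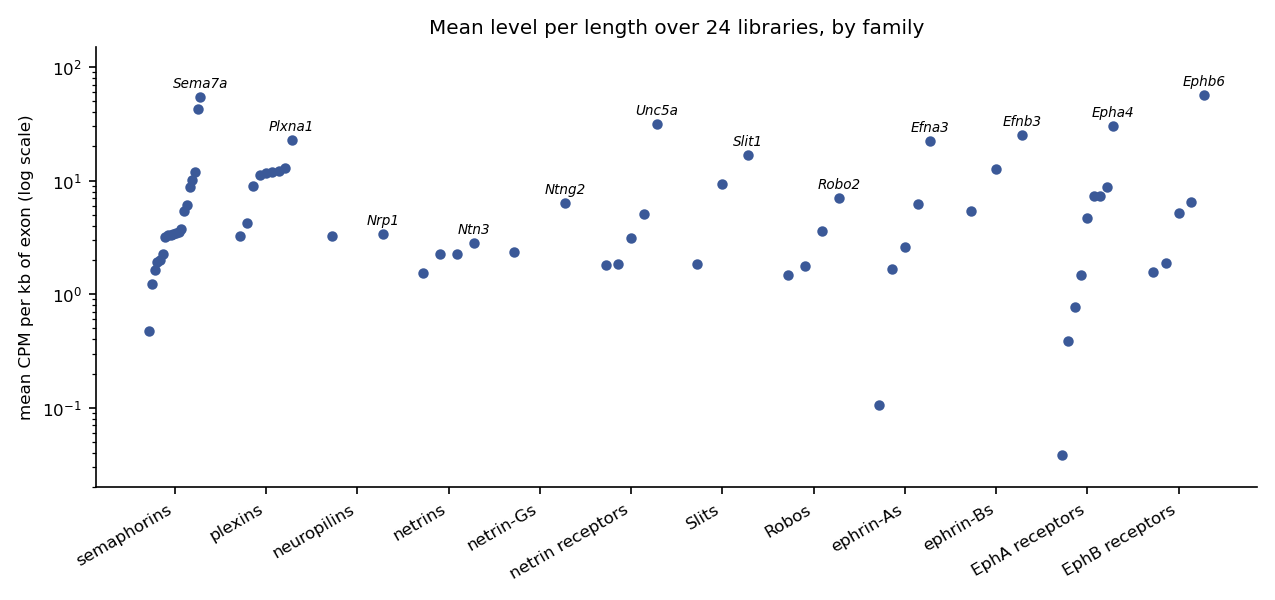
Mean level of each member per kilobase of exon over 24 libraries (CPM per kb, log axis), by family, with 1 dot per gene and the highest gene of each family named. Ephb6 and Sema7a stand highest, at 56.5 and 54.1 CPM per kb, and no netrin exceeds 2.8.

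The first comparison asked how the mPFC differs from the ACC, within each sex and surgery. In sham females 37 of 70 members were called at an adjusted p under 0.1 (edgeR quasi-likelihood test, Benjamini-Hochberg over all genes tested), 30 higher and 7 lower in the mPFC, which is 52.9% of the members against 28.5% of all genes tested (14.0% higher and 14.5% lower). In sham males 33 were called, 18 higher and 15 lower, or 47.1% against 14.2% (7.46% and 6.7%), and without mPFC replicate 2 or 3 the count was 17 or 15 (24.3% or 21.4%, against 6.69% or 6.61% of all genes). After SNI the counts were 42 in females, 24 higher and 18 lower, or 60.0% against 27.6% (13.7% and 13.9%), and 37 in males, 17 higher and 20 lower, or 52.9% against 21.0% (10.4% and 10.6%). In each of the 4 comparisons the share of members called lay above the share of all genes. With the GC offset the counts were 40 (27 higher, 13 lower), 41 (25 and 16), 38 (18 and 20) and 41 (21 and 20) in the same order, against 23.0%, 24.5%, 27.2% and 24.6% of all genes.

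The members were better expressed than most genes tested, and genes with higher levels were called more often. Among genes averaging at least 10 CPM, a minimum chosen after the values were seen, 33 of 58 members (56.9%) were called in sham females against 37.8% of genes. In sham males 29 of 58 members were called against 16.5% of genes. The same shares were 67.2% against 34.5% in SNI females and 55.2% against 26.1% in SNI males. The median absolute log2 fold change of the members ran from 0.21 to 0.26 over the 4 comparisons, against 0.13 to 0.17 over all genes tested.

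**Figure D2:**
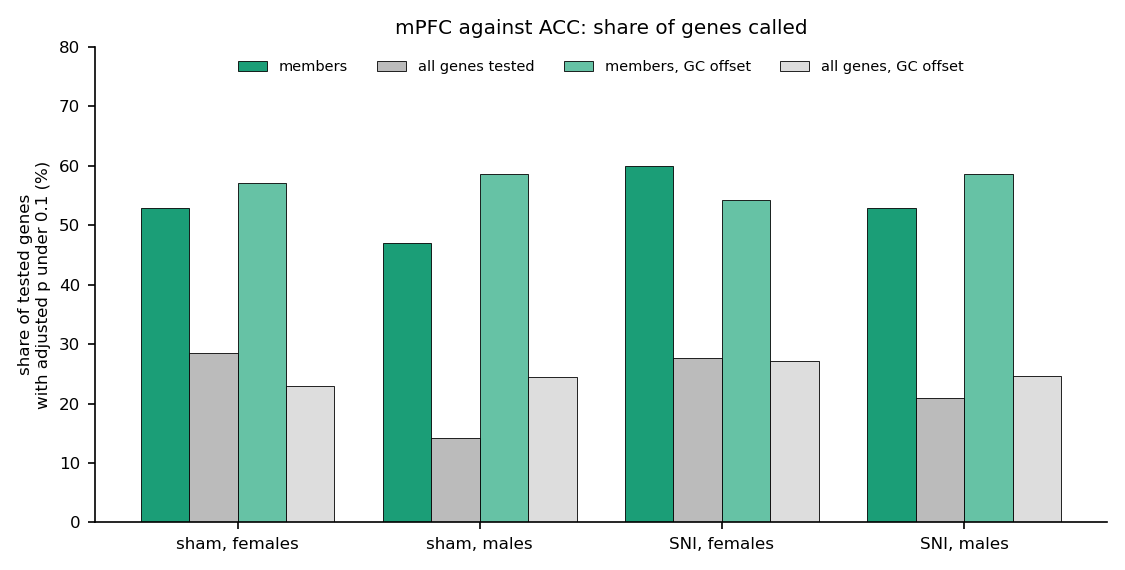
Share of tested genes called between the mPFC and the ACC (percent, bars from 0), for the members and for all genes, without and with the GC offset, in 4 comparisons that share no library. The members' bars run from 47.1% to 60.0% and those of all genes from 14.2% to 28.5% without the offset.

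The 4 comparisons share no library, so the members called the same way in several can be counted. In both sham comparisons 24 members (34.3%) were called in the same direction, 18 higher and 6 lower in the mPFC, against 9.6% of the 16319 genes tested in all 4. In both SNI comparisons 28 (40.0%) were, 15 higher and 13 lower, against 14.2%. In all 4, 18 members (25.7%) were called the same way, 13 higher and 5 lower, against 7.16% of genes. All 18 were also called in all 4 with the GC offset, which called 24 members in all 4. Besides the 18 it called Epha10, Ephb3, Plxnd1, Robo3 and Sema6c lower and Slit3 higher in all 4. Fewer comparisons were called with it than without it for Ntn3 and Sema4b (2 against 3), Ntng2 (1 against 2) and Efna2 (0 against 1). Without the offset 10 members were called in none, and only Sema6a was called in opposite directions in different comparisons. For 12 members, or 17.1%, all 12 mPFC libraries lay above or all below the 12 ACC libraries, against 5.36% of genes: Efnb1, Efnb2, Nrp2, Plxna3, Plxnc1, Robo1, Sema3d and Slit1 were above, and Epha7, Ntn5, Sema3a and Sema7a below. Region accounted for a median of 37.6% of the variance in log2 level of the 70 members against 13.9% over all genes, while SNI accounted for 2.13% against 1.35% and sex for 2.63% against 3.61%.

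**Figure D3:**
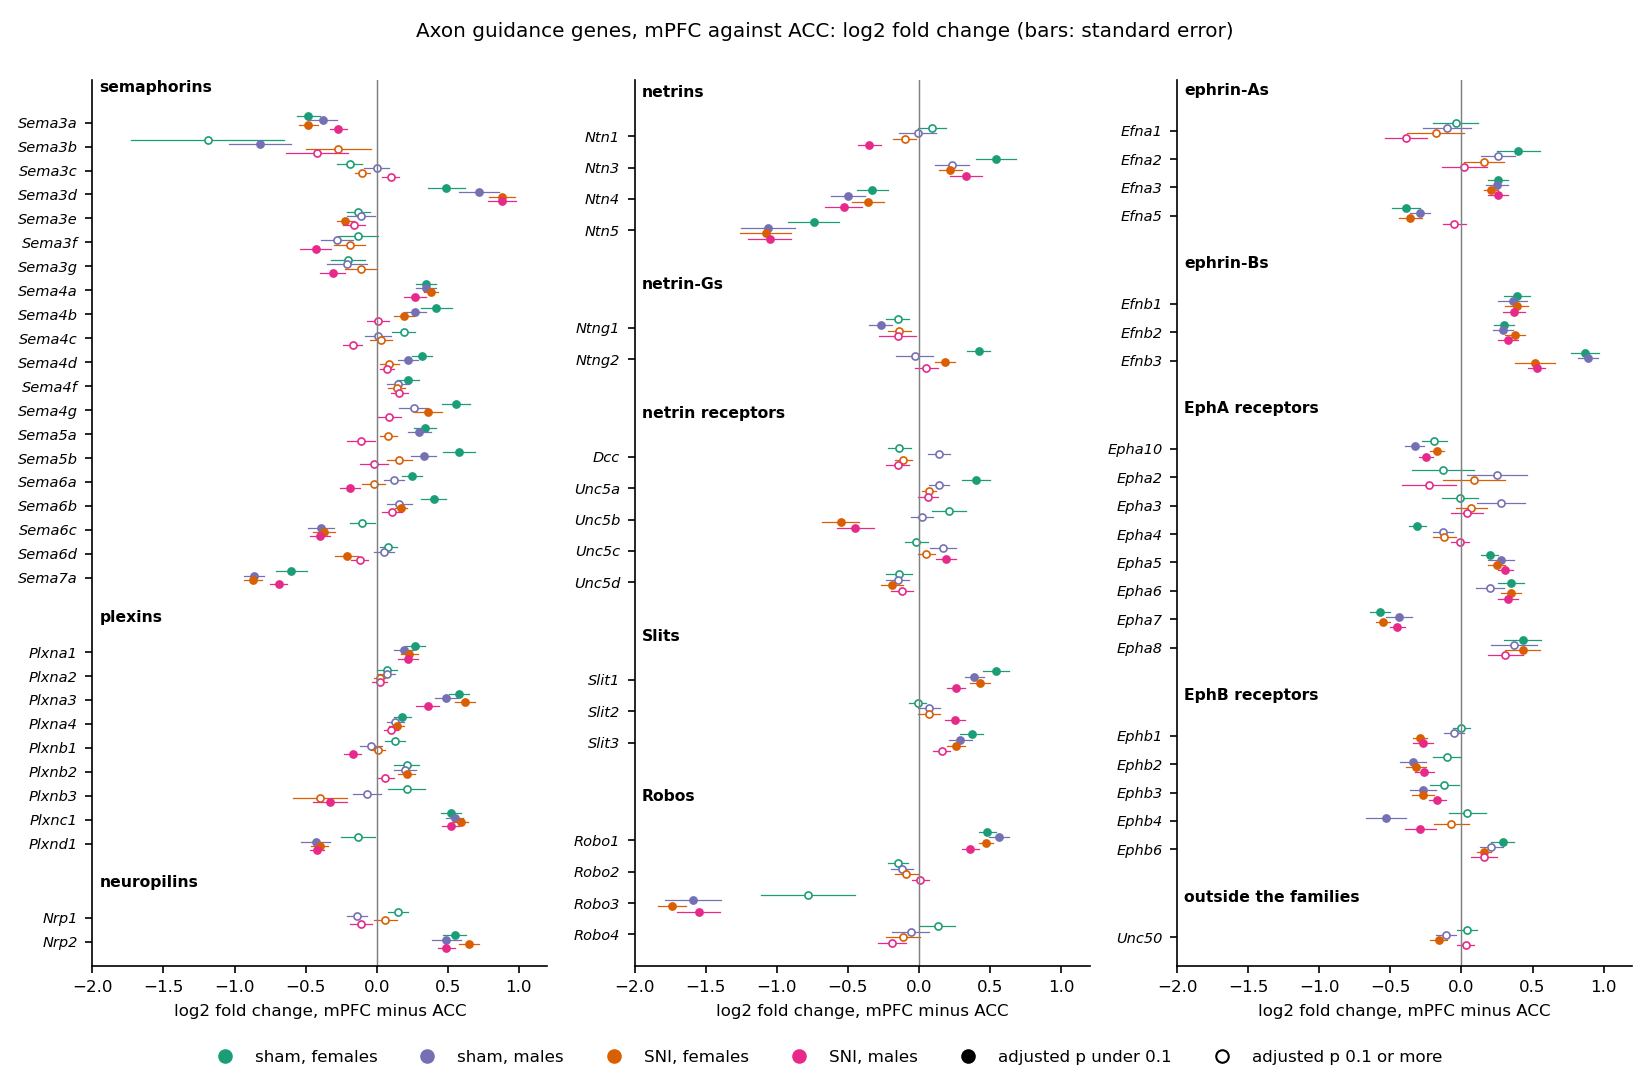
Log2 fold change of the mPFC over the ACC for the 70 tested members by family, in sham females, sham males, SNI females and SNI males (colours), with bars of 1 standard error and filled dots for an adjusted p under 0.1. Sema7a, Ntn5 and Epha7 lie left of 0 and Plxnc1, Nrp2, Robo1 and the 3 ephrin-Bs right of 0 in all 4 comparisons.

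Among the ligands, the semaphorins went both ways. Sema7a, which signals through the receptor encoded by Plxnc1 and through integrins, was lower in the mPFC. In sham females it stood at 163, 127 and 114 CPM in the mPFC and at 201, 210 and 205 CPM in the ACC. In sham males it stood at 126, 134 and 122 CPM in the mPFC and at 212, 235 and 250 CPM in the ACC. No mPFC library reached the lowest ACC library. The log2 fold change was -0.60 ± 0.11 (SE; adjusted p = 0.00342) in sham females and -0.86 ± 0.07 (adjusted p = 4.01e-05) in sham males. After SNI it was -0.87 ± 0.06 in females and -0.69 ± 0.06 in males.

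Sema3d, a secreted semaphorin, was the semaphorin with the largest mean difference toward the mPFC. Its libraries read 10.4, 14.1 and 13.5 CPM in the sham female mPFC against 9.69, 9.4 and 8.07 CPM in the ACC. In sham males they read 12.1, 14.2 and 16.4 CPM against 10.2, 8.55 and 7.43 CPM. The groups did not overlap in either sex, and the log2 fold change ran from 0.49 ± 0.13 in sham females to 0.88 ± 0.09 in SNI females. Sema3a, a secreted repellent that acts through neuropilin-1, went the other way, with log2 fold changes of -0.48 and -0.38 in sham females and males (adjusted p = 0.00259 and 0.0393). Sema4a, a transmembrane semaphorin, was higher in the mPFC in all 4 comparisons, with a mean log2 fold change of 0.34.

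Sema4b, Sema4d, Sema5a and Sema5b, all transmembrane semaphorins, were higher in the mPFC in both sham comparisons. In sham females their log2 fold changes were 0.42, 0.32, 0.34 and 0.58, and in sham males 0.27, 0.22, 0.30 and 0.33. After SNI Sema4b was called in females alone, at 0.19, and the other three in neither sex, with log2 fold changes from -0.11 to 0.16. Sema4g was called in sham females, at 0.56 ± 0.10, and SNI females, at 0.36. In all, 12, 10, 10 and 8 of the 20 semaphorins were called in sham females, sham males, SNI females and SNI males, of which 10, 6, 5 and 2 were higher in the mPFC, where 28.5%, 14.2%, 27.6% and 21.0% of all genes were called.

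Sema3b, a secreted semaphorin, was called in sham males at -0.82 ± 0.22 (adjusted p = 0.0336). In sham females its log2 fold change was -1.19 ± 0.54 (adjusted p = 0.143), and it rested on 1 ACC library at 8.57 CPM, since the other two were at 1.49 and 2.02 and the mPFC libraries at 1.42, 1.71 and 2.14 CPM. Without that library the log2 fold change was 0.01 ± 0.27. The same library held 937 CPM of the 3 choroid plexus markers in sum, against 3.86 and 9.87 CPM in the other sham female ACC libraries, and the part of this in the Sema3b value was not tested.

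All 3 ephrin-Bs, the transmembrane ephrins, were higher in the mPFC in all 4 comparisons. Efnb3, known as a midline barrier to corticospinal axons, stood at 97.7, 127 and 101 CPM in the sham female mPFC and at 58.2, 54.6 and 67.0 CPM in the ACC. In sham males it stood at 114, 110 and 112 CPM against 62.2, 63.2 and 57.0 CPM. The lowest mPFC library of either sex was well above the highest ACC library. The log2 fold change was 0.87 ± 0.10 (adjusted p = 0.000397) in sham females and 0.89 ± 0.07 (adjusted p = 1.37e-05) in sham males. After SNI it was 0.52 ± 0.14 and 0.53 ± 0.06, and in females the groups then overlapped, with 64.0, 105 and 92.6 CPM in the mPFC against 60.2, 57.1 and 67.6 CPM in the ACC. Efnb1 ran from 0.36 to 0.39 and Efnb2 from 0.29 to 0.38 over the 4 comparisons. Among the ephrin-As, Efna3 was higher in all 4, at a mean log2 fold change of 0.25, and Efna5, a repellent of topographic maps, was lower in both sham comparisons at -0.39 and -0.29 and in SNI females at -0.36.

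The netrins included Ntn5, the ligand with the largest mean difference toward the ACC. Ntn5, a secreted netrin, stood at 2.41, 2.08 and 2.59 CPM in the sham female mPFC against 3.39, 4.58 and 3.89 CPM in the ACC, and at 2.46, 2.51 and 2.21 CPM against 4.14, 4.51 and 6.4 CPM in sham males. These groups did not overlap, and the log2 fold change was -0.74 ± 0.18 (adjusted p = 0.0156) and -1.06 ± 0.19 (adjusted p = 0.00423). It was -1.08 and -1.05 after SNI. Ntn5 has antisense exon overlap with Sec1, and the strand mode of the counting is not given in the sources used here. Ntn4, a netrin of basement membranes related to laminins, had log2 fold changes of -0.33, -0.50, -0.36 and -0.53 in sham females, sham males, SNI females and SNI males, and each was called. Ntn1, the founding netrin, was called in SNI males only, at -0.35. Ntn3 was higher in the mPFC in sham females, at 0.54 ± 0.14, and in SNI females and males, at 0.22 and 0.33. With the GC offset it was called in 2 of the 4 comparisons.

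Of the Slits, Slit1 was higher in the mPFC in all 4 comparisons, at log2 fold changes of 0.54, 0.39, 0.43 and 0.26. Slit3 was called in the 3 comparisons other than SNI males, at 0.37, 0.29 and 0.26. Slit2 was called in SNI males alone, at 0.25.

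**Figure D4:**
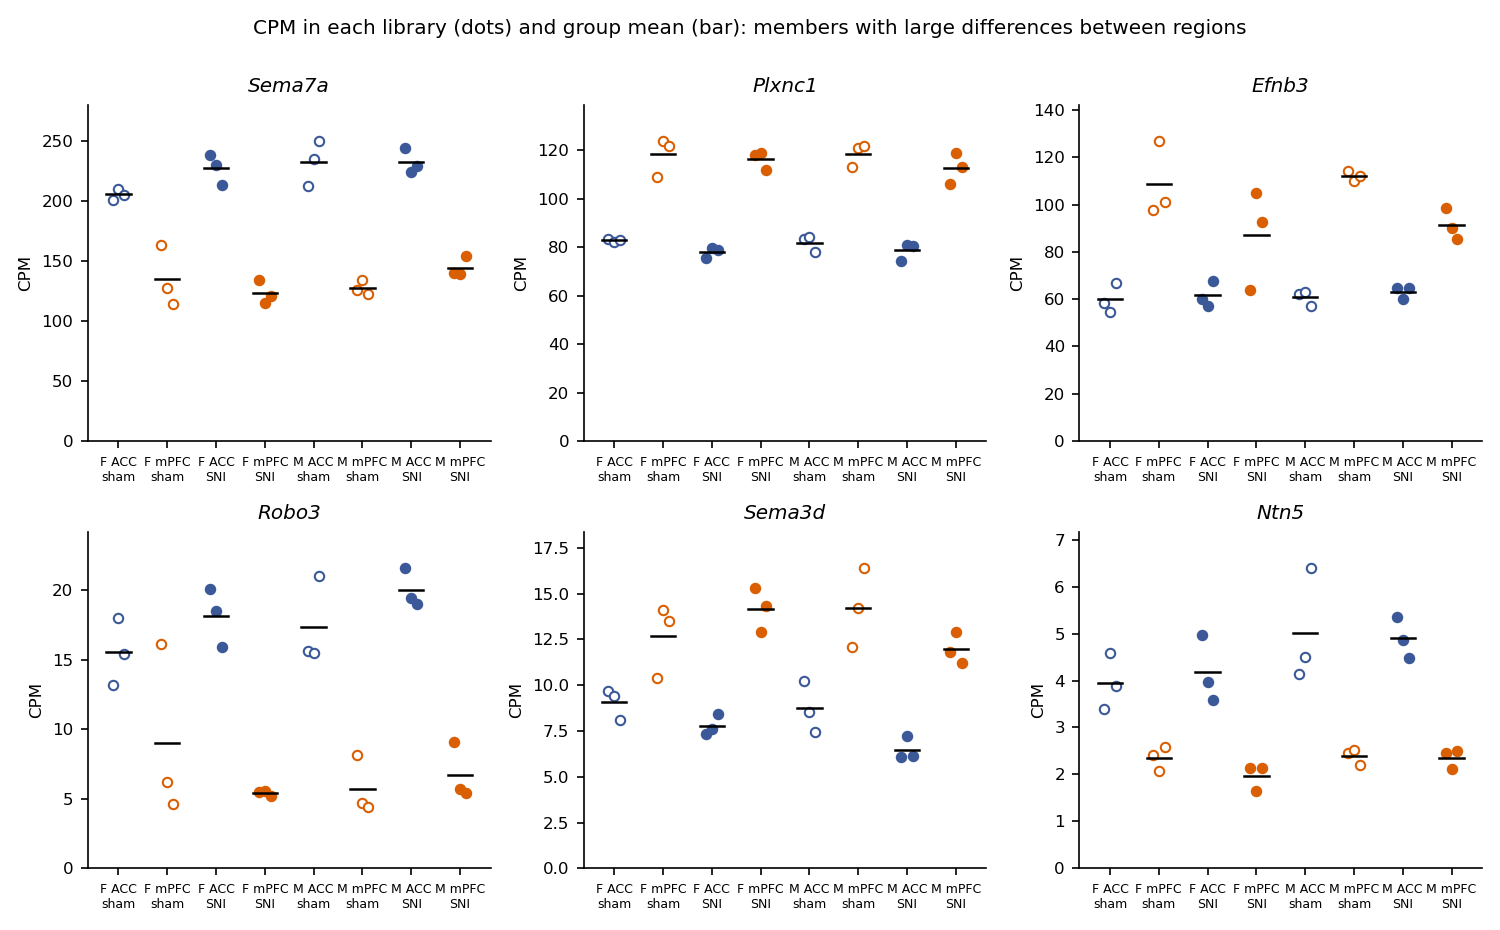
CPM in each library (dots, open for sham and filled for SNI; blue for the ACC and orange for the mPFC; F females, M males) with the mean of the 3 libraries as a bar, for Sema7a, Plxnc1, Efnb3, Robo3, Sema3d and Ntn5. Sema7a, Robo3 and Ntn5 are lower in the mPFC, except for 1 sham female mPFC library of Robo3 at 16.1 CPM, and the other 3 genes are higher, except that 1 SNI female mPFC library of Efnb3, at 64.0 CPM, lies within the ACC range.

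Among the receptors, Plxnc1, which binds the product of Sema7a, was the member whose variance followed region most closely, at 94.8%. Its libraries read 109, 124 and 122 CPM in the sham female mPFC against 83.3, 82.1 and 83.0 CPM in the ACC, and 113, 121 and 122 CPM against 83.5, 84.2 and 78.1 CPM in sham males. In the SNI groups the mPFC libraries ran from 106 to 119 CPM and the ACC libraries from 74.5 to 80.9 CPM. The groups were apart in every comparison. The log2 fold change was 0.52 ± 0.07 (adjusted p = 0.000505) in sham females, 0.55 ± 0.06 (adjusted p = 0.000322) in sham males, 0.59 ± 0.05 in SNI females and 0.52 ± 0.06 in SNI males. Ligand and receptor thus differed in opposite directions between the regions. Plxna1 and Plxna3, which signal for neuropilin-bound semaphorins, were higher in all 4 comparisons, at mean log2 fold changes of 0.23 and 0.51. Plxnd1, a receptor of vascular and neuronal semaphorin signalling, was lower in sham males, SNI females and SNI males, at -0.43, -0.40 and -0.42. In sham females it was -0.13 ± 0.12 (adjusted p = 0.481). With the GC offset Plxnd1 was called lower in all 4 comparisons.

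Of the neuropilins, Nrp2 was higher in the mPFC in all 4 comparisons. It stood at 42.7, 53.3 and 50.8 CPM in the sham female mPFC against 33.8, 33.3 and 33.7 CPM in the ACC, and at 44.3, 46.3 and 44.8 CPM against 30.1, 28.9 and 38.2 CPM in sham males. The log2 fold changes were 0.55 ± 0.08 and 0.49 ± 0.10 (adjusted p = 0.00142 and 0.00884), and 0.65 and 0.49 after SNI. Nrp1, the co-receptor for Sema3a, was called in none of the 4.

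The Robos split by gene. Robo3, which governs the crossing of the midline by commissural axons, was lower in the mPFC. In sham males it stood at 8.13, 4.66 and 4.38 CPM against 15.6, 15.5 and 21.0 CPM, and in SNI females at 5.49, 5.54 and 5.22 CPM against 20.1, 18.5 and 15.9 CPM. The log2 fold change was -1.59 ± 0.20 (adjusted p = 0.000514) and -1.74 ± 0.10 (adjusted p = 4.26e-07), and -1.55 ± 0.15 in SNI males. In sham females 1 mPFC library stood at 16.1 CPM and the other two at 6.2 and 4.65, against 13.2, 18.0 and 15.4 CPM in the ACC. There the groups overlapped and the log2 fold change was -0.78 ± 0.33 (adjusted p = 0.122). Without that library it was -1.50 ± 0.16 (adjusted p = 0.000358). Leaving out any other library gave values from -0.87 to -0.47, none called (adjusted p from 0.121 to 0.363). With the GC offset on all libraries Robo3 was called lower in all 4 comparisons. Robo1, a Slit receptor, was higher in the mPFC in all 4 comparisons, at 0.48, 0.56, 0.47 and 0.36. Robo2 and Robo4 were called in none.

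Of the Eph receptors, Epha7, a receptor for ephrin-As, was lower in the mPFC. Its sham libraries ran from 59.5 to 61.7 CPM in the mPFC of females and from 60.2 to 61.3 CPM in that of males, against 83.6 to 99.3 and 70.4 to 88.9 CPM in the ACC. The log2 fold changes were -0.57 ± 0.07 and -0.44 ± 0.09 (adjusted p = 0.000481 and 0.0096), and -0.55 and -0.45 after SNI. Epha5, which also binds ephrin-As, was higher in all 4, at a mean of 0.26, and Epha8 was called in females alone, at 0.43 in both sham and SNI females, with 0.37 ± 0.16 in sham males (adjusted p = 0.188). The kinase-bearing EphB receptors that were called were lower in the mPFC. Ephb2 was called at -0.34, -0.32 and -0.26 in sham males, SNI females and SNI males, Ephb3 at -0.27, -0.27 and -0.17 in the same comparisons, and Ephb1 at -0.29 and -0.27 in the SNI comparisons. Ephb4 was called at -0.53 in sham males and -0.29 in SNI males, and stood at 0.04 in sham females and -0.07 in SNI females. Ephb6 was the exception, higher at 0.29 in sham females and 0.16 in SNI females. Of the 5 netrin receptors Unc5a was called in sham females, at 0.40, and none in sham males. After SNI Unc5b and Unc5d were called in females, at -0.55 and -0.19, and Unc5b and Unc5c in males, at -0.45 and 0.19.

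These differences come from whole tissue, in which fewer cells of a type and less RNA per cell cannot be told apart. Marker levels differed between the regions too. The 5 markers of layer 5 neurons, all detected, summed to 345 to 421 CPM in the mPFC libraries and to 441 to 577 CPM in the ACC libraries, and in each of the 4 comparisons 2 of them were called higher and 3 lower in the mPFC. The 5 markers of layer 6 neurons summed to 111 to 166 CPM in the mPFC and 108 to 137 CPM in the ACC. Of these, 3 and 4 were called higher in the mPFC in sham females and males, with median log2 fold changes of 0.74 and 0.58. After SNI 3 were called higher in each sex and 1 lower in males, with medians of 0.44 in females and 0.28 in males. The 6 markers of inhibitory neurons summed to 707 to 814 CPM in the mPFC and 820 to 935 CPM in the ACC, the 7 of endothelial cells to 212 to 266 and 261 to 301 CPM, and the 6 of mural cells to 131 to 175 and 175 to 211 CPM. Of 8 astrocyte markers 4 were called lower in the mPFC in sham females, 3 in sham males and 5 in each sex after SNI. Of 6 meningeal fibroblast markers 4 and 3 were called lower in sham females and males, with medians of -0.68 and -0.41. In SNI females 2 of these 6 were called higher and 0 lower, with a median of 0.03. In SNI males 3 were called lower and 0 higher, with a median of -0.52. Of 6 markers of striatal neurons 5 were called higher in sham females and 3 in sham males, with medians of 0.66 and 0.42, and 1 lower in each. After SNI 3 were called higher and 1 lower in females, with a median of 0.4. In SNI males 2 were called higher and 2 lower, with a median of 0.09. Oligodendrocyte markers summed to 3040 to 3990 CPM in the sham mPFC and 2630 to 4340 CPM in the sham ACC. The part of these in the region results was not tested.

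The wider pathway was described with lists of other cues and receptors and of intracellular effectors. Of 53 effectors 14 were called in the same direction in both sham comparisons, 9 higher and 5 lower in the mPFC, and 10 in all 4 comparisons, which is 26.4% and 18.9% against 9.6% and 7.16% of all genes. Dpysl5, a collapsin response mediator that relays semaphorin signals, averaged 59.6 and 58.9 CPM in the sham mPFC of females and males and 29.3 and 31.7 CPM in the ACC, at log2 fold changes of 1.03 and 0.90. Its relative Dpysl3 and Srgap1, a Robo effector, were also higher, at 0.40 and 0.46, and 0.35 and 0.43. Pak1, a kinase downstream of Rac, was lower at -0.33 and -0.37, as were Chn2, a Rac regulator, at -0.37 and -0.24 and Mical2, a redox enzyme that takes apart actin filaments, at -0.24 and -0.35. Of the 30 other cues and receptors tested in all 4, 4 (13.3%, near the 9.6% of all genes) were called the same way in both sham comparisons: the adhesion molecules L1cam, Chl1 and Dscaml1 higher, at 0.53 and 0.48, 0.22 and 0.59, and 0.45 and 0.34, and Boc, a co-receptor for hedgehog, lower at -0.36 and -0.47.

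The second comparison asked what SNI changed. In the male mPFC 4 of 70 members were called, or 5.71% against 0.494% of all genes tested (0.341% lower and 0.153% higher). Efnb3 fell from 114, 110 and 112 CPM in the sham libraries to 98.4, 90.0 and 85.6 CPM after SNI. Sema6a, a transmembrane semaphorin that binds plexin-As, fell from 33.5, 32.3 and 33.0 to 28.2, 25.5 and 27.1 CPM. Sema5a, a ligand of the plexin encoded by Plxnb3, fell from 71.2, 69.7 and 69.2 to 60.5, 47.2 and 58.2 CPM. In each the SNI libraries all lay under the sham libraries. The log2 fold changes were -0.29 ± 0.05 (adjusted p = 0.0558) for Efnb3, -0.28 ± 0.06 (adjusted p = 0.0722) for Sema6a and -0.33 ± 0.07 (adjusted p = 0.0985) for Sema5a. Ntng2, a membrane-anchored ligand of the synaptic protein NGL-2, rose from 21.7, 25.9 and 22.9 to 30.2, 29.1 and 27.7 CPM, a log2 fold change of 0.31 ± 0.07 (adjusted p = 0.0985). These calls changed with the fit: with the GC offset Efnb3 and Sema6a were called and Ntng2 and Sema5a were not (adjusted p = 0.259 and 0.145; 0.412% of all genes were). A single model over 24 libraries called no member and none of the 18078 genes tested (0.0%). DESeq2 called 6 (8.57% against 1.67% of all genes), the fit without the filter 10 (13.7% against 2.01%) and the fit with the replicate number as a block 13 (18.6% against 4.39%). Leaving out SNI replicate 2, SNI replicate 3, sham replicate 1 or sham replicate 3 left none called, against 0.133%, 0.288%, 0.185% and 0.0402% of all genes. Leaving out SNI replicate 1 left 3 (0.73% of all genes) and leaving out sham replicate 2 left 2 (0.398%).

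At an unadjusted p under 0.05 the male mPFC held 23 members, against 11.2% of genes, and 18 members (25.7%) had groups that did not overlap, against 17.0% of genes tested. Unc5b, a netrin receptor of repulsion, stood at 31.7, 24.2 and 29.9 CPM after SNI against 39.6, 33.0 and 36.1 CPM, at -0.33 ± 0.09 (adjusted p = 0.178). The median log2 fold change of the members was -0.02, and 41 of 70 were below 0, against 8419 of 16989 genes tested.

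In the female mPFC no member was called by edgeR, against 0.00592% of all genes tested, and 10 had an unadjusted p under 0.05, against 12.1% of genes. DESeq2 called 1 (0.0769% of all genes) and the fit without the filter 6 (2.19%). Without sham replicate 3, the library whose GC trend was -0.063, 15 were called, all lower, or 21.4% against 15.9% of all genes, while the GC offset on all 6 libraries called none. Without SNI replicate 1, the library lowest in oligodendrocyte markers, none was called, against 0.0632% of all genes. Unc5b stood at 16.1, 26.5 and 23.3 CPM after SNI against 34.6, 35.5 and 29.1 CPM in sham, which do not overlap, at -0.58 ± 0.14 (adjusted p = 0.401). Sema5b and Ntn1 stood at -0.34 ± 0.10 and -0.32, and Ephb1 at -0.21, each at an adjusted p of 0.401. Of the members called in males, Sema6a stood at -0.23 ± 0.09, Efnb3 at -0.31 ± 0.15, Sema5a at -0.02 ± 0.08 and Ntng2 at -0.13 ± 0.08. In females 51 of 70 members were below 0, against 8549 of 16897 genes tested, and the members' median of -0.08 was -0.04 with the GC offset.

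With both sexes in 1 model of the mPFC no member was called (0 of 17641 genes tested were, or 0.0%), and 14 had an unadjusted p under 0.05, against 7.33% of genes. DESeq2 called 2 (0.357% of all genes). With the replicate number as a block edgeR called 3 (4.29% against 0.244% of all genes). The smallest adjusted p was 0.328, shared by Sema6a at -0.25 ± 0.06 and Unc5b at -0.45 ± 0.10, followed by Sema5b at -0.25 ± 0.07 and Sema3f, a ligand of neuropilin-2, at -0.27. With the GC offset Unc5b, Sema6a and Sema5b were called lower, each at an adjusted p of 0.0815, and 0.346% of genes were called.

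In the ACC no member was called in females, where 0.024% of genes were and 9 members had an unadjusted p under 0.05 (6.67% of genes), or in males, where 0.00599% of genes were and 1 member did (4.48% of genes). DESeq2 called none in either, against 0.222% and 0.018% of all genes. Without sham male replicate 3, the library with a GC trend of 0.188, 13 were called in males, or 18.6% against 13.5% of all genes. In females Sema5a stood at 58.9, 63.4 and 67.5 CPM after SNI against 50.6, 55.9 and 55.0 CPM, which do not overlap, at 0.23 ± 0.06 (adjusted p = 0.476), and Sema7a, Unc5a and Ephb2 stood at 0.14, 0.12 and 0.16. In males Sema3d stood at -0.44, Sema4b at 0.19, Slit2 at -0.18 and Ntn1 at 0.26, each at an adjusted p of 0.768. Efnb3 stood at 0.03 ± 0.07 in females and 0.05 ± 0.07 in males, and Unc5b at 0.17 ± 0.10 and 0.11 ± 0.13. Sema6a stood at 0.03 and 0.01, Ntng2 at 0.11 and 0.21, and Sema5a at 0.05 in males. Over both sexes edgeR and DESeq2 called no member and none of the 17289 genes tested (0.0%). An unadjusted p under 0.05 was reached by 8 members (5.56% of genes), and the smallest adjusted p was 0.814. There Ephb2 stood at 0.15, Sema3d at -0.32, Ephb1 at 0.10 and Unc5a at 0.13.

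**Figure D5:**
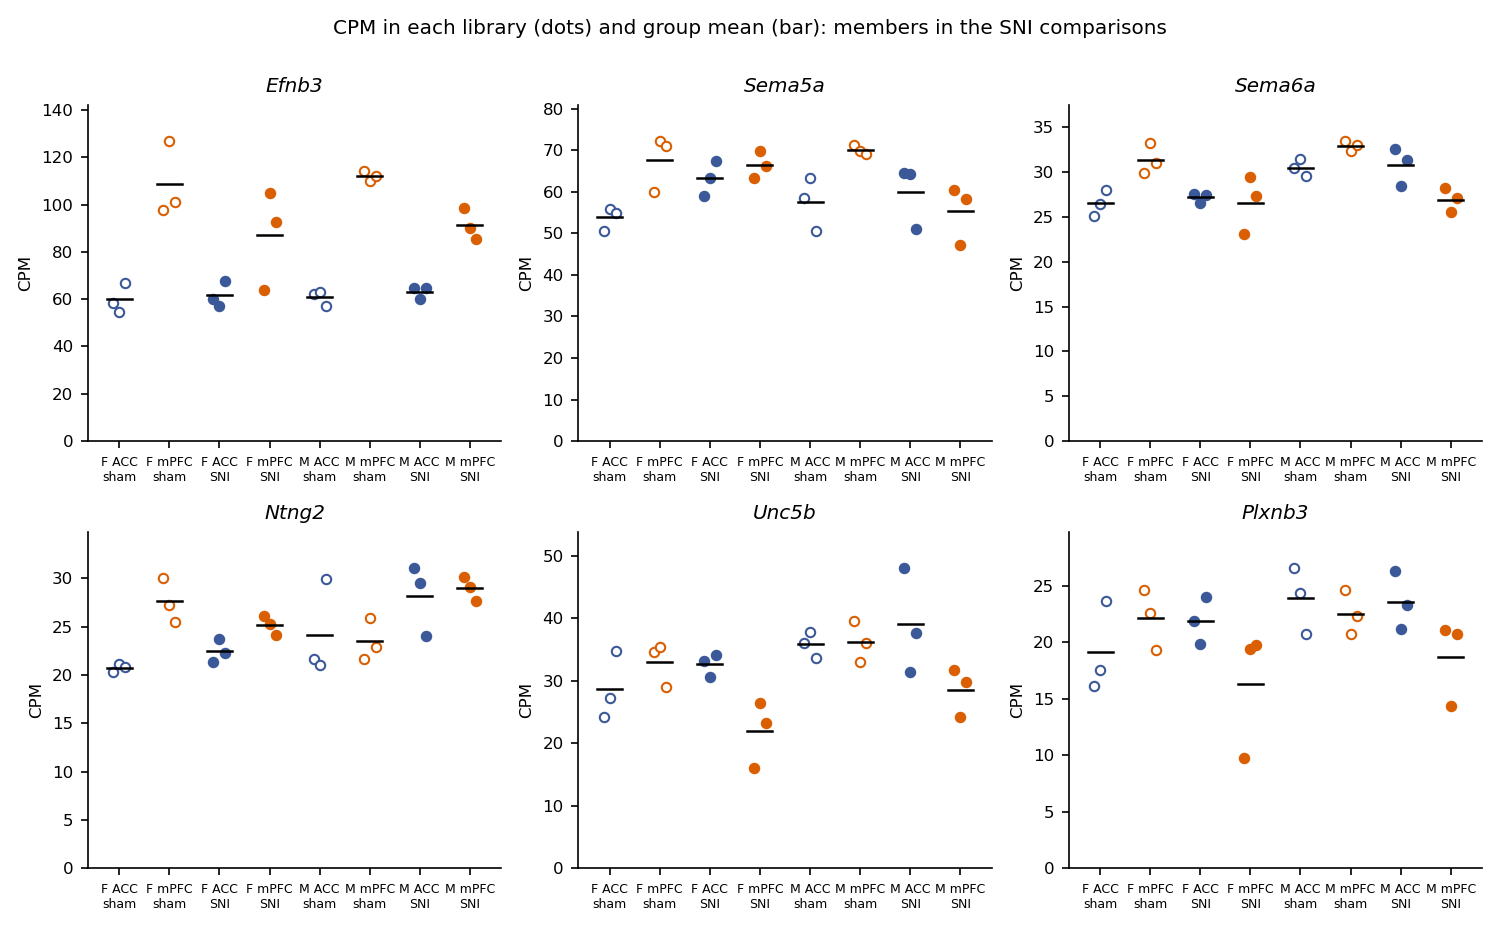
CPM in each library (dots, open for sham and filled for SNI; blue for the ACC and orange for the mPFC; F females, M males) with the mean of the 3 libraries as a bar, for Efnb3, Sema5a, Sema6a, Ntng2, Unc5b and Plxnb3. In the male mPFC the SNI libraries of Efnb3, Sema5a and Sema6a lie under the sham libraries and those of Ntng2 above them.

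The region and SNI comparisons share libraries, so their values for Unc5b are given side by side. It did not differ between the regions in sham mice beyond the test's threshold, at 0.21 ± 0.12 in females and 0.02 ± 0.08 in males, and was lower in the mPFC after SNI, at -0.55 ± 0.13 (adjusted p = 0.0107) and -0.45 ± 0.13 (adjusted p = 0.0333). The interaction of region and SNI tested the difference between these, and was -0.76 ± 0.20 in females (adjusted p = 0.428) and called no member in either sex. Plxnb3, a plexin enriched in oligodendrocytes, read 9.81, 19.4 and 19.8 CPM in the SNI female mPFC against 24.6, 22.6 and 19.3 CPM in sham. The same library was lowest for Unc5b and Plxnb3 in that group, and it was also the lowest in oligodendrocyte markers. Efnb3, Sema6a and Sema5a were lowest in it too, at 64.0, 23.1 and 63.2 CPM, while Ntng2 was highest, at 26.1 CPM.

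The 12 oligodendrocyte markers, all detected, summed to 1140, 2840 and 2620 CPM in the SNI female mPFC against 3280, 3510 and 3040 CPM in sham, and to 3000, 2050 and 2730 CPM in the SNI male mPFC against 3990, 3460 and 3800 CPM. All 12 had a log2 fold change below 0 in both sexes, with medians of -0.53 and -0.57, and 8 were called in males and 0 in females. Between the regions 11 of the 12 were called lower in the mPFC in SNI females and 10 in SNI males, against 2 and 0 in the sham comparisons, beside the values of Unc5b. Oligodendrocyte precursor markers summed to 210 to 277 CPM after SNI and 290 to 307 CPM in sham in the female mPFC, and to 238 to 272 and 282 to 306 CPM in the male. Layer 6 markers summed to 124, 111 and 126 CPM after SNI against 140, 157 and 157 CPM in the male mPFC, with 2 of 5 called lower and a median of -0.29. Excitatory neuron markers there summed to 6620 to 7010 CPM against 5930 to 6230 CPM, with none called. All 6 striatal markers stood below 0 in both sexes, with medians of -0.37 in females and -0.14 in males and none called. SNI male mPFC replicate 2, the lowest library for Sema5a, held 80.2 CPM of choroid plexus markers against 4.29 to 5.28 CPM in the other male mPFC libraries. It was also the lowest male mPFC library in oligodendrocyte markers, at 2050 CPM. The same held for Sema6a, Unc5b and Plxnb3, at 25.5, 24.2 and 14.4 CPM. For Efnb3 the lowest was SNI replicate 3, at 85.6 CPM. The part of these markers in the SNI results was not tested.

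The third comparison set sham females against sham males. No member was called by edgeR in the mPFC, where 0.177% of genes were and 5 members had an unadjusted p under 0.05 (10.6% of genes), or in the ACC, where 0.0958% of genes were and 8 members did (6.64% of genes). DESeq2 called none in either, against 0.651% and 0.377% of all genes. In the mPFC Sema6b and Ephb4 were highest in rank, at 0.26 ± 0.09 and 0.38 ± 0.13 toward females (adjusted p = 0.351 for each). In the ACC Nrp1 stood at 30.9, 28.8 and 32.4 CPM in females and 38.2, 39.0 and 34.8 CPM in males, at -0.28 ± 0.07 (adjusted p = 0.53), and Sema6a at -0.20 ± 0.07 (adjusted p = 0.663). With the GC offset Nrp1 was called in the ACC (adjusted p = 0.0521), with 0.395% of genes. Without sham female mPFC replicate 3, 15 members were called in the mPFC, all higher in females, or 21.4% against 15.5% of all genes, and without sham male ACC replicate 3, 1 was called in the ACC, against 0.405% of genes.

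No interaction called a member with edgeR, and DESeq2 called 2 for sex by SNI in the mPFC (2.86% against 4.57% of all genes) and none in the others. Without sham female mPFC replicate 3, 19 were called for sex by SNI in the mPFC (27.1% against 18.3% of all genes) and 13 for region by SNI in females (18.6% against 11.6%). Without sham male ACC replicate 3, 7 of 70 were called for sex by SNI in the ACC, against 9.65% of all genes. In the mPFC 13 members had an unadjusted p under 0.05 for sex by SNI, led by Ntng2, at -0.44 ± 0.11 for females minus males (adjusted p = 0.216), and Sema6b, at -0.36 ± 0.11. In the ACC 5 did, led by Efna5 at 0.28 ± 0.10 and Ntn1 at -0.41 ± 0.16, and the smallest adjusted p was 0.753. For region by SNI 12 did in females, led by Unc5b and Ephb1, and 9 in males, led by Efnb3 at -0.35 ± 0.09 and Sema6a at -0.31 ± 0.09, both at an adjusted p of 1.0. For region by sex among the sham groups 5 did, led by Nrp1 at 0.28 ± 0.09 and Ephb4 at 0.57 ± 0.20. With edgeR no gene was called in these interactions (0.0%), except 0.0115% for region by sex. DESeq2 called 0.0116% of genes for sex by SNI in the ACC and 0.0458% for region by sex. For region by SNI it called 0.0344% in females and 0.0171% in males. At an unadjusted p under 0.05 the shares of all genes were 15.8% and 5.92% for sex by SNI in the mPFC and ACC, 11.1% and 3.19% for region by SNI in females and males, and 7.29% for region by sex.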

How the data were processed

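The members, gene lists and tests were chosen with earlier results of these data known. The authors deposited raw counts of reads per gene; per the labels and methods, reads were trimmed with Trimmomatic 0.36, aligned to GRCm38 with HISAT2 2.1.0 and counted with HTSeq 0.9.1, and the strand mode is not given in the sources used here. Library totals ran from 23853845 to 32864391 counts.

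Each comparison was fitted on its own libraries with edgeR 4.0.16 in R 4.3.3 (limma 3.58.1): filterByExpr with a count minimum of 10 and a total of 15, TMM factors, the quasi-likelihood F-test and Benjamini-Hochberg adjustment over all genes tested, with calls at an adjusted p under 0.1, two-sided. Both-sex fits held sex as a term. Interactions were fitted over 12 libraries. An exact permutation test of 3 against 3 cannot go below p = 0.1. Per the study's methods the libraries of a group came from separate pools of animals, so p-values measure the spread between pools. The GC offset removed a lowess trend (span 0.5) of log2 level on GC content. Exon lengths, overlaps and GC content came from GENCODE release 21 on GRCm38, and promoters from RefSeq.

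Named were members called the same way in both sham region comparisons, and the 3 largest in each direction of those called in 1. For SNI they were Unc5b, Efnb3, Ntng2, Sema5a and Sema6a, held by the study's own SNI lists from these libraries. The 4 smallest p per SNI comparison were added, and the 2 smallest per sex or interaction comparison. Also named were the highest and lowest level per family, and the 3 largest per direction of the other guidance genes. Other members named in the text were chosen after their values were seen. Alternatives were DESeq2 1.42.0, RLE factors, no filter, a minimum of 10 counts in each library, the current quasi-likelihood method, 1 model over 24 libraries, the replicate number as a block, the GC offset, both together, and leaving out each library. The fitting code was run on simulated counts with a fixed dispersion and changes larger than those of the members called after SNI. That run therefore does not show how well changes of the size called after SNI are detected.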

Additional observations from a re-analysis of the deposited data

Results flagged for a closer look

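Nrp1 differed between the regions in opposite directions in sham females and males. Its log2 fold change of the mPFC over the ACC was 0.15 in females and -0.14 in males, with every mPFC library above the ACC libraries in females and below them in males. The region by sex interaction was 0.28 (edgeR adjusted p = 0.628). Sema6a did the same between surgeries in males, at -0.19 after SNI and 0.12 in sham, and the region by SNI interaction was -0.31 (adjusted p = 1.0).

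In females Ephb1 stood lower after SNI in the mPFC, at -0.21, and higher in the ACC, at 0.07, with no overlap between surgeries in either region. The region by SNI interaction was -0.29 (adjusted p = 0.428). In males Unc50, which shares only the prefix with the netrin receptors, stood at 0.1 in the mPFC and -0.07 in the ACC, and the interaction was 0.15 (adjusted p = 1.0). None of these 4 differences passed the test.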

How the results depend on the processing

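The region counts of members stayed within 1.5 times under each alternative that kept all libraries. Leaving out 1 library gave 26 to 45 members in sham females, 15 to 47 in sham males, 31 to 42 in SNI females and 26 to 36 in SNI males, while the share of all genes called ran from 13.3% to 41.5%, 6.61% to 27.0%, 16.7% to 31.6% and 12.4% to 22.3%. The calls kept in every fit that left out 1 library were 25 of 37 in sham females and 14 of 33 in sham males. After SNI they were 28 of 42 in females and 24 of 37 in males.

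The SNI counts were less stable, and shares in parentheses are of all genes under the same setting. In the male mPFC (4 called) no filter gave 10 (2.01%), 1 model over 24 libraries 0 (0.0%), and the GC offset 2 (0.412%). Leaving out 1 library there gave 0 to 3 (0.0402% to 0.73%). In the female mPFC DESeq2 gave 1 (0.0769%), no filter 6 (2.19%), and leaving out 1 library 0 to 15 (0.0% to 15.9%). Over both sexes of the mPFC DESeq2 gave 2 (0.357%), no filter 7 (1.71%), the GC offset 3 (0.346%), and leaving out 1 library 0 to 0 (0.0% to 0.0667%). In the ACC no filter gave 3 (1.38%) in females. Leaving out 1 library there gave 0 to 0 in females (0.0059% to 0.8%), 0 to 13 in males (0.0% to 13.5%) and 0 to 0 over both sexes (0.0%). Between sexes no filter gave 2 (1.58%) and leaving out 1 library 0 to 15 (0.081% to 15.5%) in the mPFC. In the ACC the GC offset gave 1 (0.395%) and leaving out 1 library 0 to 1 (0.0586% to 0.405%). For sex by SNI in the mPFC DESeq2 gave 2 (4.57%), no filter 8 (2.79%) and leaving out 1 library 0 to 19 (0.0% to 18.3%). In the ACC leaving out 1 library gave 0 to 7 (0.0% to 9.65%). For region by SNI no filter gave 7 (2.16%) in females and 2 (0.407%) in males, and leaving out 1 library 0 to 13 (0.0% to 11.6%) and 0 to 0 (0.0% to 0.0056%). For region by sex no filter gave 2 (0.885%) and leaving out 1 library 0 to 0 (0.0056% to 0.0281%). The cause was not tested.

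Libraries with the same replicate number were little correlated in their deviations from the group means. The correlations ran from -0.103 to 0.153, and no comparison had every pair over 0.1. Between the regions they ran from -0.06 to 0.102. The titles number the ACC and mPFC libraries alike, and whether those with the same number shared animals is not stated. With 3 libraries per group these correlations cannot settle it. With the number as a replicate block 13 members were called in the male mPFC (18.6% against 4.39% of all genes) and 3 over both sexes (4.29% against 0.244%). With the block and the GC offset these were 8 (11.4% against 2.02%) and 5 (7.14% against 1.92%), and 1 between sexes in the ACC (1.43% against 0.599%).

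Among 114 results on single members, 58 of them called, the sign turned for small values. With the GC offset, without and with the block, Efnb3 stood at -0.05 and -0.05 in the male ACC and Ntng2 at 0.01 and 0.01 in the female mPFC, and with both Unc5b stood at -0.0 in the male ACC. Leaving out 1 library turned the sign of SNI values in 6 results. In the female ACC Efnb3 ran from -0.04 (-0.03 without another) to 0.12 and Sema6a from -0.01 to 0.07. In the male ACC Sema5a ran from -0.03 to 0.15, Sema6a from -0.03 (-0.01 without either of 2 others) to 0.07 and Unc5b from -0.05 to 0.25. In the female mPFC Sema5a ran from -0.1 to 0.02 (0.01 without another).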
